A study of Rattus norvegicus with 3 samples.

Results

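The aggrecan and hyaluronan system is a set of 10 genes for the large hyaluronan-binding proteoglycans of the matrix and their partners: *Acan*, *Hapln1*, *Vcan*, *Has1*, *Has2*, *Cd44*, *Tnfaip6*, *Sox9*, *Matn2* and *Prg4*. The genes were chosen by name with earlier results of these arrays known, so their signals are given as a description and without a test. In total, 7 of the 10 genes were measured, by 16 of the 31042 probe sets of the array, a probe set being a group of short probes for a transcript. The platform's table names no probe set for *Has1*, *Sox9* and *Prg4* alone, and these genes were not analysed here. RNA came from cultured tendon stem/progenitor cells (TSPCs) of the Achilles tendon of Sprague-Dawley rats aged 1 day (TSPCs-1d), 7 days (TSPCs-7d) and 56 days (TSPCs-56d), below also the 1-day, 7-day and 56-day cells. The cells grew out of pooled tissue of at least 2 animals per age, were passed through a low density colony step and were used at passage 2 in low glucose medium with serum. Each age had 1 array, so no difference has a replicate check, and age cannot be told apart from the culture or the array.

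Hyaluronan is a very long unsulphated sugar chain, spun out at the cell surface by the hyaluronan synthases. Aggrecan and versican, core proteins laden with chondroitin sulphate, bind it through their N-terminal globular domain, and link proteins lock this bond into aggregates that hold water. In tendon, aggrecan is known from regions under compression and from the matrix close to the cells, while versican surrounds cells of tissues that grow or are remodelled. CD44 anchors hyaluronan to the cell, and the protein of *Tnfaip6* moves heavy chains of inter-alpha-inhibitor onto it.

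In the 56-day cells *Acan*, *Hapln1* and *Tnfaip6* were 2.99-fold to 5.72-fold lower than in 1-day cells at the probe sets with no dim signal, whereas *Vcan* had ratios from 1.58 to 1.998. *Cd44* was level, *Has2* had its lowest signal in 1-day cells, and *Matn2* was too faint to place. Signals are linear intensity units, as the authors deposited them, and a fold change is the ratio of a pair of arrays, past the cutoff when over 2 either way. A signal under 48.9, the 25th percentile of all signals, is called dim, and a fold change with a dim signal is given as "at least", with that signal raised to 48.9. Of the 16 probe sets, 7 were more than 2-fold lower in 56-day than in 1-day cells (1.80% of all probe sets) and 1 was higher (1.52% of all). Against 56-day cells, 7 were higher in 7-day cells (1.68% of all) and 0 were lower (1.31% of all). Between 7-day cells and 1-day cells, 2 were lower (0.989% of all) and 0 higher (1.36% of all). The genes past the cutoff were *Acan*, *Hapln1* and *Tnfaip6*, and the faint *Matn2*. The faintest probe set of *Hapln1* also passed it only through a dim signal. With dim signals raised to 48.9, 6 probe sets were lower and 0 higher in 56 vs. 1 days, and 6 were higher in 7 vs. 56 days. The single probe set that was higher in 56-day cells, that of *Matn2*, passed the cutoff through a dim signal and was no longer counted with the arrays set to the same median, which gave 0 higher and 7 lower. Quantile normalization and loess centring also took *Matn2* below the cutoff and put 1 probe set of *Vcan* past it, for 1 higher and 7 lower. The median log2 ratio of the 16 probe sets was 0.09 for 7 vs. 1 days, -0.02 for 7 vs. 56 days and 0.02 for 56 vs. 1 days, next to 0.01, -0.05 and 0.05 for all probe sets.

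**Figure D1:**
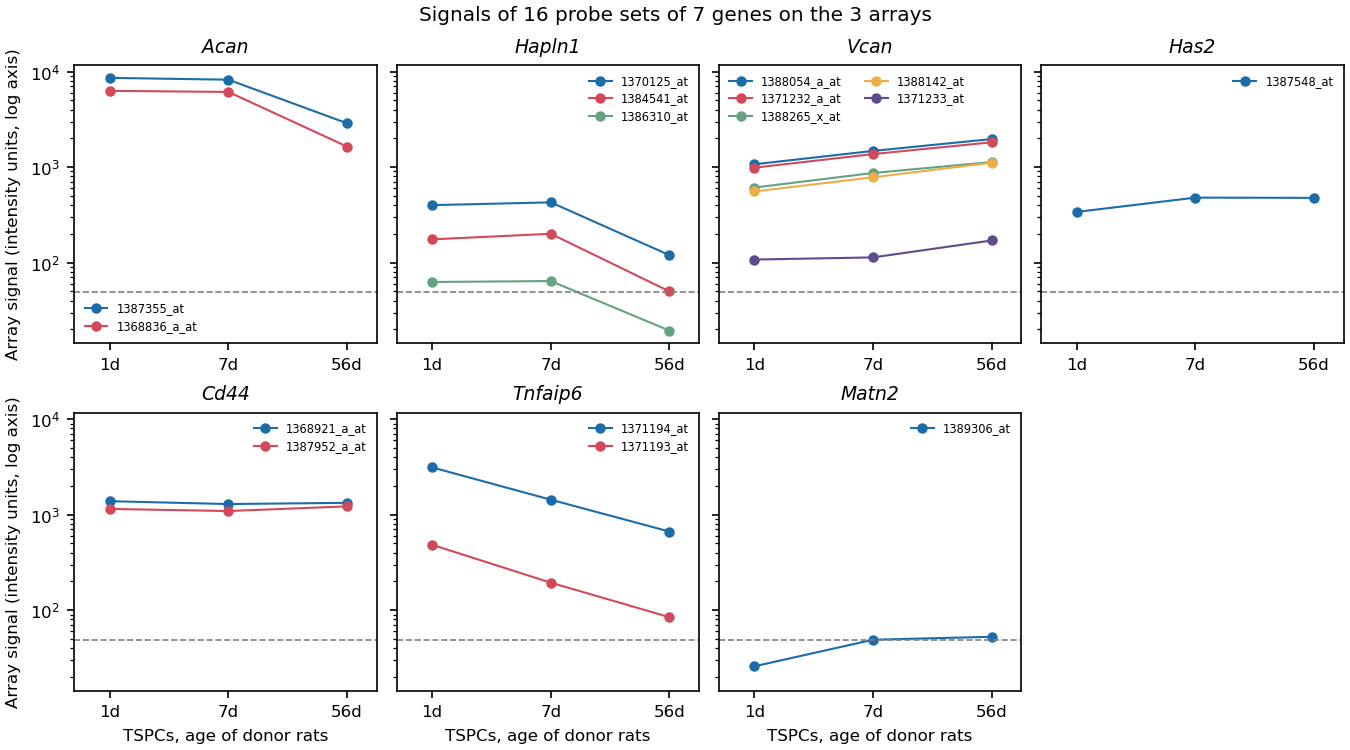
Array signal (intensity units, log axis) of each probe set of the 7 measured genes by age of the rats (1, 7 and 56 days), with 1 point per array and the dashed line at the 25th percentile of all signals (48.9). *Acan* and *Hapln1* are level from TSPCs-1d to TSPCs-7d and lower in TSPCs-56d, *Tnfaip6* steps down at each age, and *Vcan* is highest in TSPCs-56d (1967 at its brightest probe set).

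The promoters of the 4 members with the largest differences at a bright probe set are shown, because 3 of these genes were lower in 56-day cells and *Vcan* had its highest signals there. They are RefSeq sequences of GRCr8, 250 bases before to 50 bases after a start of the gene. The table held a promoter for 5 of the 7 measured genes. Capitals mark matches, on either strand, to an AP-1 site (TGANTCA), a Sox core (ACAAAG or ACAATG), a GC box (GGGCGG) or a TATA box (TATAAA). *Acan* lies at chr1:142390701-142391000 (plus strand), *Hapln1* at chr2:22366717-22367016 (plus strand), *Tnfaip6* at chr3:56911148-56911447 (plus strand) and *Vcan*, at the first of its listed starts, at chr2:22595906-22596205 (minus strand).
Acan: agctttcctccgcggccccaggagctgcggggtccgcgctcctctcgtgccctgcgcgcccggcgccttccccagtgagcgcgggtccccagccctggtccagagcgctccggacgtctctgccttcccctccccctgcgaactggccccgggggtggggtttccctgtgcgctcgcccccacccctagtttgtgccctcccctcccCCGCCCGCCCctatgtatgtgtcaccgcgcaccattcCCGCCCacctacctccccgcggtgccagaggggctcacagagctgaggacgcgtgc
Hapln1: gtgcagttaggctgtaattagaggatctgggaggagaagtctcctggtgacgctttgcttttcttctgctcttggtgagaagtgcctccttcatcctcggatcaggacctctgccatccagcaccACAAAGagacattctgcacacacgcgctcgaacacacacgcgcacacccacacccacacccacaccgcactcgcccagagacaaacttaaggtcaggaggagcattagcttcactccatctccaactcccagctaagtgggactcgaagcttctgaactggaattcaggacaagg
Tnfaip6: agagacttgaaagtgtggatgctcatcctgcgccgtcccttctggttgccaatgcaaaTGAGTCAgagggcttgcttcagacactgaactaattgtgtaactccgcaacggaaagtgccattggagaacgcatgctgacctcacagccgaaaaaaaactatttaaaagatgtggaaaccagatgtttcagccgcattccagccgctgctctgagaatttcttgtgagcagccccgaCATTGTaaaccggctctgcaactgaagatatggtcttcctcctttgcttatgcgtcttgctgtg
Vcan: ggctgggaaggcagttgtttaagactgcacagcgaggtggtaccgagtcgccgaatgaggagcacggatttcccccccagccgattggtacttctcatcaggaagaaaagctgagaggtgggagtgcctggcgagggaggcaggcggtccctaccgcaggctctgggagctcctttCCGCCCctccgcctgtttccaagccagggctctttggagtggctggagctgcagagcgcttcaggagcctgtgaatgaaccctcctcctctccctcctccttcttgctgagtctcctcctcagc

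The GC content was 73.0% for *Acan*, 61.0% for *Vcan*, 53.7% for *Hapln1* and 48.3% for *Tnfaip6*, with a median of 51.7% over 33469 promoters. *Acan* held 3 GC boxes, the first pair of which overlap, and *Vcan* held 1, and 33.1% of all promoters held at least 1. *Hapln1* held 1 Sox core and 0 GC boxes, and 29.1% of all promoters hold a Sox core. *Tnfaip6* held 1 AP-1 site, which 7.33% of all promoters hold, and 1 Sox core. A TATA box was in none of these 4 windows and in 14.2% of all. A match is a run of letters, not a site in use.

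*Acan* encodes aggrecan, the proteoglycan that swells cartilage and the compressed parts of tendon. Its brighter probe set (1387355_at) had signals of 8588 in 1-day cells, 8224 in 7-day cells and 2874 in 56-day cells. Its other probe set (1368836_a_at) had 6283, 6121 and 1639 in the same order. Both younger cultures were thus high and the oldest culture was low. *Acan* was 2.99-fold and 3.83-fold lower in 56-day than in 1-day cells at these probe sets, and 2.86-fold and 3.73-fold higher in 7-day than in 56-day cells. Between the younger cultures the ratio of 7-day cells to 1-day cells was 0.96 and 0.97. On the log2 scale the difference to 1-day cells was -1.58 and -1.94 in 56-day cells. As a guide to the noise of a probe set, 90% of 1714 genes with 2 bright probe sets had log2 ratios that lay within 0.53 of each other in this comparison, 0.39 in 7 vs. 1 days and 0.44 in 7 vs. 56 days. The step of *Acan* between 7-day cells and 56-day cells is larger than this spread between probe sets, whereas the spread between cultures is unknown. As the arrays hold RNA of whole cultures, fewer cells that make a transcript and less of it per cell cannot be told apart.

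*Hapln1* encodes the link protein that fastens aggrecan to hyaluronan in cartilage, and its signals followed the same course. They were 399.8 in 1-day cells, 428 in 7-day cells and 119.8 in 56-day cells at the brightest of 3 probe sets (1370125_at). At the second (1384541_at) they were 175, 200.5 and 49.98. The faintest (1386310_at) had 62.7, 64.2 and a dim 19.4. *Hapln1* was therefore 3.34-fold and 3.51-fold lower in 56-day than in 1-day cells at the brighter probe sets, and at least 1.28-fold lower at the faintest. It was 3.57-fold, 4.01-fold and at least 1.31-fold higher in 7-day than in 56-day cells. The log2 ratios of 7-day cells to 1-day cells lay between 0.03 and 0.19, below the noise guide of 0.39, so no step between the younger cultures could be read.

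*Vcan* encodes versican, the hyaluronan-binding proteoglycan of embryonic and remodelling tissue, and it was measured by 5 probe sets. The brightest (1388054_a_at) had signals of 1071 in 1-day cells, 1478 in 7-day cells and 1967 in 56-day cells. At the probe set 1388142_at the signals were 557, 783 and 1112. All 5 probe sets had their lowest signal in 1-day cells and their highest in 56-day cells, the reverse of the order of *Tnfaip6*. The log2 ratios of 7-day cells to 56-day cells ran from -0.38 to -0.59, on both sides of the noise guide of 0.44. The step between these cultures can therefore not be read at every probe set. The ratio of 56-day cells to 1-day cells ran from 1.58 at the faintest probe set (1371233_at, with 108, 114 and 171) to 1.998 at 1388142_at, so *Vcan* lay under the cutoff at every probe set as deposited. At 1388142_at the log2 ratio was 1.0017 after quantile normalization and 1.02 after loess centring, which is past the cutoff, and 0.90 with the arrays set to the same median. The probe set nearest to the cutoff on its other side was that of *Matn2*, at 2.04. Between 7-day cells and 1-day cells, 4 of the 5 ratios of *Vcan* were between 1.38 and 1.42 and the faintest was 1.05. In log2 units, 56-day cells exceeded 1-day cells by 0.66 to 1.00, above the noise guide of 0.53. The probe sets 1371232_a_at and 1388265_x_at had 986, 1369 and 1819 and 611, 868 and 1129.5. Like the brightest, 1388054_a_at, they carry suffixes for probes shared between transcripts, and the 5 values are not independent.

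**Figure D2:**
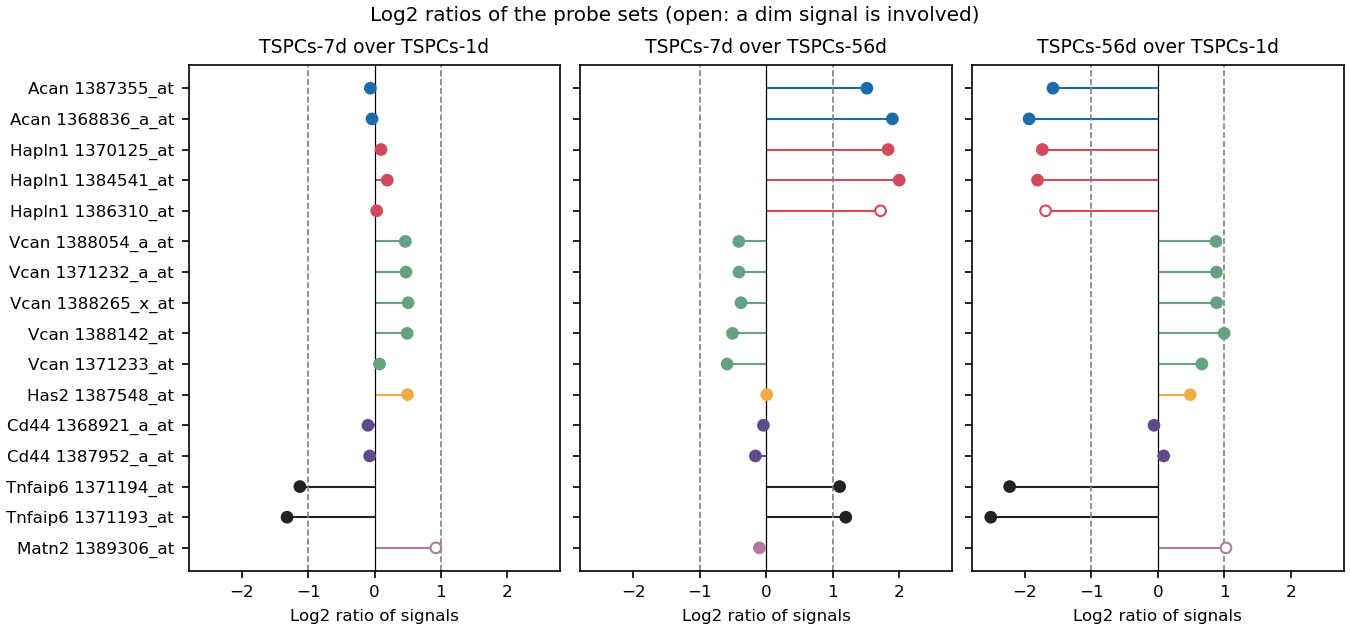
Log2 of the signal on one array over that on another (horizontal) for each of the 16 probe sets (rows, coloured by gene) in the 3 comparisons, with dashed lines at 2-fold and open points where a signal was dim. The probe sets of *Acan*, *Hapln1* and *Tnfaip6* lie between -1.58 and -2.52 for TSPCs-56d over TSPCs-1d, and those of *Vcan* between 0.66 and 1.00.

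In the rat genome *Hapln1* lies beside *Vcan* on chromosome 2, with 0 other protein-coding genes between them in the RefSeq annotation of assembly GRCr8. The other link protein genes are paired in the same way, *Hapln2* with the brevican gene *Bcan*, *Hapln3* with *Acan* and *Hapln4* with the neurocan gene *Ncan*. From 1-day cells to 56-day cells the log2 ratio of *Hapln1* was -1.74 and that of *Vcan* 0.88 at their brightest probe sets. *Hapln3*, a link protein of wide expression, had signals of 139.6, 144 and 174 at 1, 7 and 56 days, a log2 ratio of 0.32 where *Acan* had -1.58, and this value lies under the noise guide of 0.53, so no direction can be read for *Hapln3*. Brevican and neurocan are proteoglycans of the nervous system, and *Bcan*, *Ncan*, *Hapln2* and *Hapln4* were below the median of all signals (110.1) on each array. Of these 8 hyalectan and link protein genes, 2 were more than 2-fold lower in 56-day than in 1-day cells, *Acan* and *Hapln1*, beside 1.77% of all 14217 genes, and 0 were higher.

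**Figure D3:**
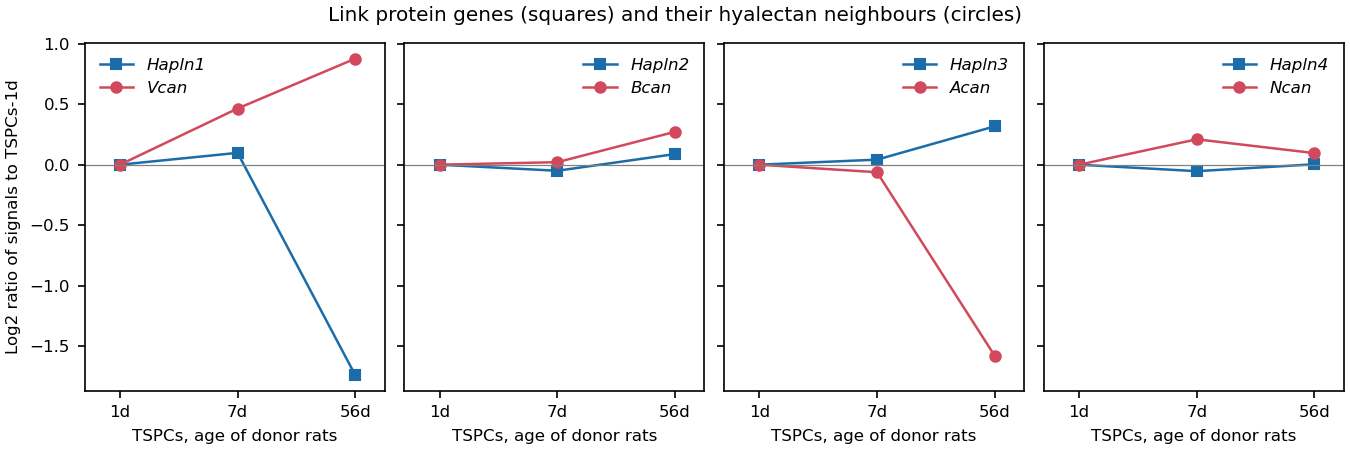
Log2 ratio of the signal to that in TSPCs-1d (vertical) for the 4 pairs of neighbouring link protein genes (squares) and hyalectan genes (circles), at the brightest probe set of each gene, 1 point per array. *Hapln1* (-1.74) and *Acan* (-1.58) are low in TSPCs-56d, while their neighbours *Vcan* (0.88) and *Hapln3* (0.32) are above 0.

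*Tnfaip6*, a secreted hyaluronan-binding protein gene that inflammatory signals are known to induce, had the largest differences to 1-day cells among the members. Its brighter probe set (1371194_at) had signals of 3128 in 1-day cells, 1435 in 7-day cells and 666 in 56-day cells. The fainter (1371193_at) had 484, 194 and 84.6. The newborn culture was highest and the adult culture lowest at both. *Tnfaip6* was 2.18-fold and 2.49-fold lower in 7-day than in 1-day cells, and 2.15-fold and 2.30-fold lower in 56-day than in 7-day cells. Over the whole interval it was 4.69-fold and 5.72-fold lower. Among the members, *Tnfaip6* was the only gene past the cutoff in all 3 comparisons. Only 60 and 40 of all 31042 probe sets had a lower ratio of 56-day cells to 1-day cells than these.

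*Has2* encodes the main hyaluronan synthase of mesenchymal cells and had 1 probe set, with signals of 339.6 in 1-day cells, 479 in 7-day cells and 477 in 56-day cells. Both older cultures were higher, with ratios of 1.41 and 1.40 to 1-day cells and of 1.01 between 7-day cells and 56-day cells. On the log2 scale these differences to 1-day cells were 0.50 and 0.49. The former is above and the latter below the noise guides of 0.39 and 0.53, and neither passed the cutoff. *Cd44*, the hyaluronan receptor and a marker of mesenchymal stem cells, was level on the 3 arrays. Its probe sets had 1385, 1293 and 1331 (1368921_a_at) and 1149, 1092 and 1222 (1387952_a_at) at 1, 7 and 56 days. The ratios of *Cd44* lay between 0.89 and 1.06 in all comparisons.

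*Matn2* encodes matrilin-2, an adaptor protein that links collagen fibrils and other matrix proteins. Its only probe set was faint, with signals of 25.9 in 1-day cells, 49.1 in 7-day cells and 52.75 in 56-day cells. The ratio of 56-day cells to 1-day cells was 2.04, but with the dim signal raised to 48.9 it was at least 1.08. This probe set does not show whether *Matn2* differed between the cultures.

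By the distance of both log2 ratios to 1-day cells, the genes most like *Tnfaip6* among 9327 named genes above the median of mean signal were *Pln*, the phospholamban gene, the adrenergic receptor gene *Adra2a* and the transporter gene *Slc16a12*. *Pln* lay at a distance of 0.08 with signals of 5884, 2729 and 1321 at 1, 7 and 56 days. For *Hapln1* the nearest genes were *C1qtnf3* (0.21), *Acan* (0.23) and the amino acid transporter gene *Slc7a3* (0.27). *C1qtnf3*, which encodes a secreted protein made in growth cartilage, had 305, 282 and 90.6. These likenesses rest on 3 arrays and are a description.

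The wider pathway was read from 13 lists with 136 other genes, of which 108 were measured, each at its probe set of the highest mean signal. Of these, 7 were more than 2-fold higher in 56-day than in 1-day cells (2.00% of all genes) and 0 were lower (1.77% of all). Of the 7 measured members, 3 were lower and 1, the faint *Matn2*, was higher. As the members were chosen with earlier results known, these counts are a description and no contrast is drawn. With each array set to the same median, 6 of the 108 genes were higher and 1 was lower, the protease gene *Adamts9*. In 7-day cells, 4 were higher than in 1-day cells (1.87% of all) and 0 lower (1.08%). Of the 4, decorin passed only through a dim signal, and the others were *Hmmr*, *Il6* and *Thbd*, described below. Against 56-day cells, 2 were higher in 7-day cells (2.10% of all) and 4 lower (1.72%). These shares are of the same order as, or a few times, those of all genes, and the median log2 ratios of the 108 genes were 0.03, -0.13 and 0.11 for 7 vs. 1, 7 vs. 56 and 56 vs. 1 days, next to 0.01, -0.05 and 0.06 for all genes.

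Around *Has2*, *Gfpt2* and *Ugdh*, which supply the sugars of hyaluronan, had their highest signals at 56 days. *Gfpt2*, an enzyme of the hexosamine pathway, had signals of 129.9 in 1-day cells, 175 in 7-day cells and 401 in 56-day cells and was 3.09-fold higher in 56-day than in 1-day cells. *Ugdh*, which makes the glucuronic acid donor, had 1745, 2422 and 3002, a ratio of 1.72. *Pgm3*, another gene of these precursors, had 280, 349 and 276 and was highest in 7-day cells. Of 6 measured genes of hyaluronan synthesis and its precursors, *Has2* included, 1 was higher (2.00% of all genes) and 0 lower (1.77%) in 56-day than in 1-day cells. Their median log2 ratio was 0.42. On the side of breakdown, *Cemip2*, a cell surface hyaluronidase gene, was 2.05-fold higher in 56-day than in 1-day cells, with 95.7, 127 and 196. This call was lost under all 3 scalings, with log2 ratios from 0.93 to 0.97 in place of 1.03. The other 6 measured genes of that list did not pass the cutoff, among them *Hyal2* (223, 265 and 257) and *Cemip* (311, 211 and 374).

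Among the other receptors, *Hmmr*, a hyaluronan-binding protein that also acts on the mitotic spindle, was highest in 7-day cells. Its signals were 214, 593 and 209 at 1, 7 and 56 days, and thus 2.76-fold and 2.83-fold higher in 7-day cells, while *Cd44* was level. The Toll-like receptor genes *Tlr2* and *Tlr4*, whose proteins are held to sense hyaluronan fragments, were at least 2.14-fold and 2.24-fold higher in 56-day than in 1-day cells. Their signals were faint, with a dim 40.15, 62 and 104.5 for *Tlr2* and 72.3, 104.1 and 162 for *Tlr4* at 1, 7 and 56 days. *Tlr2* was below the median of all signals (110.1) on each array, and *Tlr4* was below it in 1-day and 7-day cells. *Lyve1*, *Stab1* and *Stab2*, receptors of lymphatic and sinusoidal endothelium, were dim on each array at the probe set used. Of the 10 measured receptors and membrane partners, *Cd44* included, 2 were higher (2.00% of all genes) and 0 lower (1.77%) in 56-day than in 1-day cells.

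Around *Tnfaip6*, of 5 other measured genes of the heavy chain transfer, 0 passed the cutoff, and the heavy chain genes *Itih1* to *Itih4* had signals between 16.5 and 94.3, below the median of all signals on each array. Of 9 measured other genes that inflammation is known to induce, 1 was higher (2.00% of all genes) and 0 lower (1.77%) in 56-day than in 1-day cells. This gene, *Il6*, had 301, 1011 and 1698 at 1, 7 and 56 days, 5.64-fold higher in 56-day than in 1-day cells where *Tnfaip6* was 4.69-fold lower. *Ptgs2*, the inducible cyclooxygenase gene, had 4059, 2869 and 3146, named here after its values were seen.

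*Adamts1*, *Adamts4* and *Adamts5*, proteases that cut aggrecan and versican, had their highest signals in 56-day cells, but did not pass the cutoff. *Adamts1* had signals of 2972, 2956 and 5132 at 1, 7 and 56 days, a ratio of 1.73 in 56 vs. 1 days. For the aggrecanase genes *Adamts4* and *Adamts5* this ratio was 1.60 and 1.34. The log2 ratio of *Adamts5* was 0.42 at its brighter probe set, under the noise guide of 0.53, so no direction can be read there. The other probe set of *Adamts5* was also higher in 56-day than in 1-day cells, with a log2 ratio of 0.57, above the guide. *Timp3*, the tissue inhibitor of these proteases, was 2.36-fold higher in 56-day than in 1-day cells and 3.21-fold higher than in 7-day cells, with 656, 483 and 1550.4. Its 4 probe sets gave ratios from 1.18 to 3.12 in the first comparison. In contrast, *Adamts9* had 246, 236 and 131. In 56 vs. 1 days the median log2 ratio of the 8 measured genes of this list was 0.66. In that comparison 1 of them was higher past the cutoff (*Timp3*), beside 2.00% of all genes.

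Genes that build and sulphate the chondroitin chains carried by aggrecan and versican seldom passed the cutoff. Of 13 measured genes of chain synthesis, 0 passed the cutoff in any comparison, and the chain polymerase gene *Chsy1* had 4389, 3468 and 3154. Of 12 genes of sulphation and sulphate supply, 1 passed, the sulphotransferase gene *Chst12*. It was 2.45-fold lower in 7-day than in 56-day cells, beside 1.72% of all genes, and its other probe set gave 1.10-fold. *Papss2*, which makes the sulphate donor, had 412, 524.5 and 667. Among other carriers of such chains, decorin (*Dcn*), with a dim 22.4 in 1-day cells, 49.4 in 7-day cells and 607 in 56-day cells, was at least 12.4-fold higher in 56-day than in 1-day cells, where *Acan* was 2.99-fold lower. Thrombomodulin (*Thbd*) was 2.14-fold higher in 7-day than in 1-day cells at its brightest probe set, with raw ratios of 1.05 and 1.52 at its other, partly dim probe sets. Of 13 measured carriers, 1 was higher (2.00% of all genes) and 0 lower (1.77%) in 56-day than in 1-day cells.

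The cartilage genes that often accompany *Acan* and *Hapln1* were faint. Of 7 measured cartilage markers, 6 were below the median of all signals on each array, and the defining *Col2a1* had 66.9, 61.6 and 72.4 at its brightest probe set. Their summed signal was 505, 496 and 520 at 1, 7 and 56 days. A sum this near to background has little room to fall, so it cannot be set against the course of *Acan* and *Hapln1*. *Sox6*, a partner of *Sox9*, had 155, 158 and 193, and *Comp*, a matrix protein of tendon and cartilage, 35.8, 68.8 and 40.7. Of 16 measured Sox factors and targets, 1 passed the cutoff, the collagen gene *Col11a1* (2257, 3814 and 1799.7). It was 2.12-fold higher in 7-day than in 56-day cells, beside 2.10% of all genes past the cutoff in that direction. Of 8 measured genes of the sheath and synovial lining, which are the company of *Prg4*, 0 passed it. Matrilin-1, the relative of matrilin-2, had 118, 114.5 and 124 (*Matn1*). In 56 vs. 1 days, *Dcn* and *Matn2* of 5 measured matrilins and partners were higher past the cutoff (2.00% of all genes). *Matn2* passed it only through a dim signal of 25.9 in 1-day cells, and with that signal raised its ratio was at least 1.08.

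**Figure D4:**
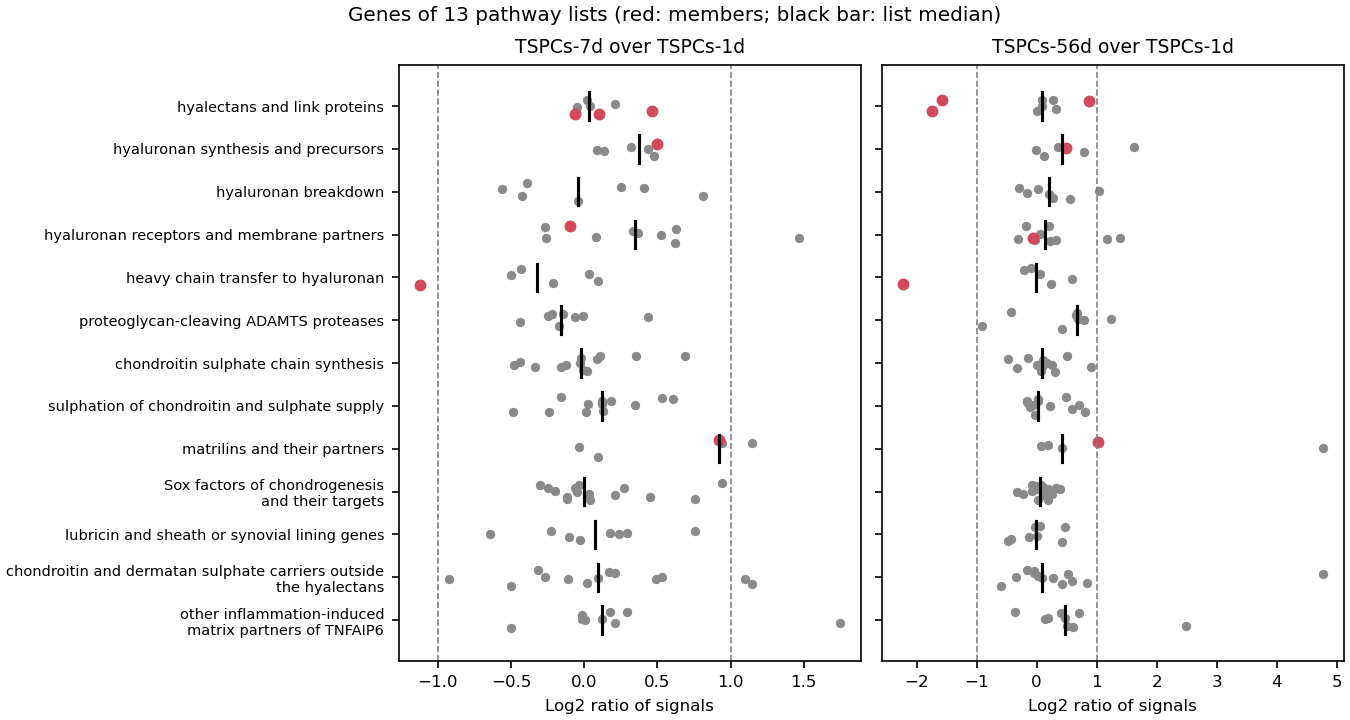
Log2 ratio of signals for each measured gene (1 point, members in red) of 13 pathway lists (rows), for TSPCs-7d over TSPCs-1d and TSPCs-56d over TSPCs-1d, with black bars at the list medians, dashed lines at 2-fold, no floor on dim signals and vertical offsets only to separate the points. For TSPCs-56d over TSPCs-1d the points left of the lower line are *Acan*, *Hapln1* and *Tnfaip6*.

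The cultures were checked against markers of tendon and of other cells. Of 8 measured tendon markers, 0 were below the median of all signals on each array, and *Scx*, the defining transcription factor of tendon, had 2255, 2578 and 2569. *Tnmd*, the tenomodulin gene of differentiated tendon cells, had 543, 351 and 158 at 1, 7 and 56 days and was 3.44-fold lower in 56-day than in 1-day cells. Other tendon markers went the other way, as *Thbs4*, a thrombospondin gene, had 76.5, 339.6 and 348 and was 4.55-fold higher, and *Tnc*, the tenascin-C gene, had 5280.4, 7303 and 11185 and was 2.12-fold higher. In that comparison 2 of the 8 tendon markers were higher (2.00% of all genes) and 1 was lower (1.77%). The median log2 ratio of the 8 markers was 0.19. Endothelial markers were all below that median on each array (6 of 6 measured), as were adipocyte markers (5 of 5). Of 8 macrophage and leukocyte markers 5 were below it on each array, among them *Ptprc* (20.8, 24.96 and 30.6). In contrast, *Cd14* (162, 157 and 155) and *Lyz2* (115, 138 and 198) were above it on each array, and *Cd68* had 122, 109 and 143. The summed signal of pericyte and smooth muscle markers was 19896, 14979 and 22237, with 5 of 7 above the median on at least 1 array. Its members were split, since the smooth muscle myosin gene *Myh11* (2186, 1671 and 5067) was 2.32-fold higher and the adhesion gene *Mcam* (2182, 929.95 and 927) 2.35-fold lower in 56-day than in 1-day cells, the latter in the direction of *Tnfaip6*. The summed signal of skeletal muscle markers was 5168, 3760.2 and 8409. Its height at 56 days was carried by *Acta1* (1772, 855 and 5327), while *Myh1* (3149, 2641 and 2782) did not rise. The sum was 633, 625 and 720.3 for macrophage and leukocyte markers and 842, 896 and 1446 for Schwann cell markers. The latter was carried mainly by *S100b* (530, 535 and 1000), while *Sox10* (50, 57.9 and 64.4) was below the median of all signals on each array. The part of such cells in the differences of *Acan*, *Hapln1* and *Tnfaip6* was not tested.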

How the data were processed

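Total RNA of TSPCs-1d, TSPCs-7d and TSPCs-56d was hybridized to 3 Affymetrix Rat Genome 230 2.0 arrays, 1 per age. The authors deposited linear intensity values per probe set, normalized and summarized with MAS5 and with RMA according to their methods and with MAS5 alone according to the submitters' notes. The algorithm behind the final values is thus not settled, and probe level data and detection calls were not used here. Array medians were 107, 108 and 114, with no further scaling. The number of arrays limits the precision. The platform's table names 1 gene for 20826 probe sets, several for 436 and none for 9780. Genes stand for their probe set of the highest mean signal, and 20758 single-gene probe sets have a RefSeq ID. Members and lists were chosen with earlier results of these data known. Named genes are all members, up to 4 genes per pathway list and direction past 2-fold, a fixed set of direct partners, and, for the pair of members with the largest ratios, the 3 genes of the nearest pattern. Others lie outside this rule and are examples, among them *Ugdh*, *Pgm3*, *Adamts9*, *Itih1* to *Itih4*, *Matn1*, *Ptgs2* and most cell markers. With 1 array per age no test was made. Alternatives were 3 scalings, floors, a pseudocount of 32, cutoffs of 1.5 and 3, and other uses of probe sets. The calculation was tested on simulated data. Python 3.11.15, numpy 2.4.6, pandas 2.3.3, statsmodels 0.14.6 and matplotlib 3.10.9 were used.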

Additional observations from a re-analysis of the deposited data

How the results depend on the processing

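Of the 17 member ratios of the deposited signals past 2-fold, 16 stayed past it under each of 3 scalings (division by the median, quantile normalization and loess centring), and 11 under each floor and the pseudocount. Of 288 member values under these alternatives, 266 moved by at most the estimated standard deviation of 1 probe set and 0 changed direction after passing the cutoff. In log2 units this standard deviation was 0.15, 0.15 and 0.18 for 7 vs. 1, 7 vs. 56 and 56 vs. 1 days. It came from the same pairs of probe sets as the noise guide. With a floor at the median, 4 member probe sets passed the cutoff in 7 vs. 56 days and 5 in 56 vs. 1 days, in place of 7 and 8. The pathway genes past it were then 2 in 7 vs. 1 days and 4 in 56 vs. 1 days, in place of 4 and 7, and a pseudocount of 32 also gave 2 and 4. A 1.5-fold cutoff gave 13 member probe sets in 56 vs. 1 days, all 5 of *Vcan* among them, and 14, 19 and 23 pathway genes in 7 vs. 1, 7 vs. 56 and 56 vs. 1 days. A 3-fold cutoff gave 0 member probe sets in 7 vs. 1 days and 4 in 7 vs. 56 days, and 1, 2 and 3 pathway genes. With a gene's probe sets averaged, 1, 3 and 4 member genes passed in the 3 comparisons, where the unit is 7 genes instead of 16 probe sets. The shares of all probe sets or genes under these other settings are not given here. These counts therefore show only how the calls depend on the processing. Faint signals limit *Matn2* and the faintest probe set of *Hapln1*. No paired analysis was possible because each age has 1 array.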
